A study of Mus musculus with 14 samples.

Results

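Troponin is the calcium switch of striated muscle. Troponin C binds calcium, troponin I holds back the contact between actin and myosin, and troponin T fastens the complex to tropomyosin on the thin filament. Slow and fast skeletal muscle and heart muscle use different genes for these subunits, and immature skeletal muscle also uses heart forms. The 8 genes described here are Tnnc1 (troponin C of slow and heart muscle), Tnnc2 (fast troponin C), Tnni1 (slow troponin I), Tnni2 (fast troponin I), Tnni3 (heart troponin I), Tnnt1 (slow troponin T), Tnnt2 (heart troponin T) and Tnnt3 (fast troponin T). They were chosen by gene symbol, and all 8 were found among the 24016 transcripts of the expression table.

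The study asked what loss of Klf5, a zinc finger transcription factor, does to gene expression while muscle precursors differentiate. C2C12 cells, an established mouse myoblast line that fuses into myotubes when the serum in its medium is lowered, received either control siRNA (siCtrl) or a pool of siRNAs against Klf5 (siKlf5). Poly(A) RNA was sequenced before the switch to differentiation medium with horse serum (day 0) and on days 1, 2 and 3 after it, with 1 library for each siRNA and day and 8 libraries in all. Both siRNA groups were the same line in the same medium, and they differed in the siRNA alone, as far as the labels say. The other 6 samples of the series, which are ChIP-seq, were not analysed here.

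Levels are FPKM, fragments per kilobase of exon, which the authors scaled to a total of 10000000 per library. Being per length, they can be set side by side between genes. How a stated limit of 3 reads per position acted on high levels is unclear, and its part in the levels, ranks and shares below was not tested. Libraries held between 7850497 (siCtrl day 1) and 20301447 (siCtrl day 2) exon reads, and each level rests on 1 library. Klf5 itself was lower in the siKlf5 library on every day, with 35.1 against 224 FPKM on day 0 and 211 against 933 FPKM on day 3. All 7 markers of myogenic cells were detected. Of 10 heart muscle markers, 3 reached a mean of 1 FPKM and 2 (Nppa and Sln) had no read in any library, and the heart factor Nkx2-5 was at 0 until day 3. Every library is a mix of cells, so fewer cells of a type and less RNA per cell cannot be told apart.

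In mm9 coordinates the genes lie at chr14:32021498-32024897 (Tnnc1, NM_009393, plus strand), chr2:164602662-164605234 (Tnnc2, NM_009394, minus), chr1:137696088-137707566 (Tnni1, NM_001112702, plus), chr7:149628373-149630310 (Tnni2, NM_009405, plus), chr7:4469910-4474045 (Tnni3, NM_009406, minus), chr7:4456172-4467577 (Tnnt1, NM_001277903, minus), chr1:137737438-137748838 (Tnnt2, NM_001130176, plus) and chr7:149684741-149701914 (Tnnt3, NM_001163666, plus). A troponin I gene and a troponin T gene are neighbours on the same strand at 3 of these places. Tnni3 ends 2333 bases from Tnnt1 with no other listed transcript between them. Tnni1 and Tnnt2 are 29872 bases apart with Lad1 between them, and Tnni2 and Tnnt3 are 54431 bases apart with Lsp1 and Prr33 between them. The coding transcripts of the 8 genes shared no stretch of 30 bases in any of the 28 pairs. In the GENCODE M1 annotation, 592 bases within Tnnc2 are also exon of a form of Ube2c, a cell division gene on the opposite strand. Reads of both strands were counted, so reads of Tnnc2 and of that Ube2c form cannot be told apart there.

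The bases before the start of 4 of the genes are shown because these genes give the contrasts that follow: the slow and fast forms of troponin C, which had nearly equal levels, and the neighbours Tnnt1 and Tnni3, of which Tnnt1 reached 1722 FPKM and Tnni3 never passed 15.0 FPKM. Each run holds the 250 bases before the RefSeq start on GRCm38.p6, read 5′ to 3′ along the gene. Capitals mark E-boxes, CANNTG, the motif that MyoD and its relatives bind.
Tnnc1 (chr14:31208062-31208311, plus strand): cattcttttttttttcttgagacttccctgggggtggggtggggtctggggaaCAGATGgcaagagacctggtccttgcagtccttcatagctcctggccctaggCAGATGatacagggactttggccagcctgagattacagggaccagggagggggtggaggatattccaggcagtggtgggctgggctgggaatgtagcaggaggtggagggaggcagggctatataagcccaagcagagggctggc
Tnnc2 (chr2:164779735-164779984, minus strand): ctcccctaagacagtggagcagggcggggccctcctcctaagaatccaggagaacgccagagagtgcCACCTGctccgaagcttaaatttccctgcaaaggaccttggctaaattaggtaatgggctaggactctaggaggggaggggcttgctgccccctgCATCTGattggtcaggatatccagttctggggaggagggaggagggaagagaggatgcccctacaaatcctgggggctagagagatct
Tnnt1 (chr7:4515976-4516225, minus strand): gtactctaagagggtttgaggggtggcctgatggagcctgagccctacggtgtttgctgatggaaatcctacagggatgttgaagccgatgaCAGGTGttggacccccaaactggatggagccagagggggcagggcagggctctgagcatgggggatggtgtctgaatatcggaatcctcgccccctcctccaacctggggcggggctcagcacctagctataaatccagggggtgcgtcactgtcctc
Tnni3 (chr7:4522529-4522778, minus strand): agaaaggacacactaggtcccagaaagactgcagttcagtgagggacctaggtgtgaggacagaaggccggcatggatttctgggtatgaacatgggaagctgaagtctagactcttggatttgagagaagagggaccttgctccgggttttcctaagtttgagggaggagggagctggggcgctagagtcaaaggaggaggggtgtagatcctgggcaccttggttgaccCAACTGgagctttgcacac
In these runs the first base of each E-box lies at -197 and -145 in Tnnc1, -183 and -88 in Tnnc2, -158 in Tnnt1 and -19 in Tnni3, counted from -1 just before the start. The RefSeq table held promoters of 6 of the 8 genes, with more than 1 start for Tnni1 and for Tnnt2. The Tnni1 windows (135799171-135799470 and 135799261-135799560) overlap, so the sites they share are counted more than once below. All 8 promoters matched, of 300 bases each with 50 after the start, contained an E-box, as did 72.3% of all 32851 promoters in the table. Tnni3 had 1 E-box in that window, Tnnc1 and Tnnc2 had 2, and a start of Tnnt2 had 5. The letters CACCC, on either strand and the core of sites for Klf factors, were in 7 of these 8 promoters and in 57.5% of all promoters. CATTCC, an MCAT-type motif, was in Tnnc1 and in 1 start of Tnnt2 (14.7% of all promoters), and CTANNNNTAG, a MEF2-type motif, was in none of the 8 (3.69% of all promoters). These matches are of letters only and show no binding.

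Over the days of differentiation, 7 of the 8 troponin genes rose together. Between day 0 and day 3, over both siRNAs, Tnnc1, Tnnc2, Tnni1, Tnni2, Tnnt1, Tnnt2 and Tnnt3 rose 7.25-fold (Tnnt2) to 34.1-fold (Tnni2), and Tnni3 did not pass the test. The paired linear model (limma, on log2 of FPKM + 0.1, with Benjamini-Hochberg adjustment over 14312 transcripts with a mean of at least 1 FPKM) called 7 of 8 troponin genes higher, beside 12.8% of all transcripts tested. The median log2 difference was 3.90 over the 8 troponin genes and -0.09 over all transcripts tested.

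Tnnc1, which encodes the calcium-binding subunit of slow fibres, had 248.7, 2233, 2170 and 2681 FPKM in siCtrl cells on days 0, 1, 2 and 3. In siKlf5 cells the same 4 days gave 148, 2230, 2767 and 2942 FPKM. Both day 0 libraries were thus below every later library, and on day 1 the level was 83.3% (siCtrl) and 75.8% (siKlf5) of that on day 3. From day 0 to day 3 Tnnc1 rose by a log2 difference of 3.87 ± 0.23 (SE, limma, adjusted p = 2.34e-05). Its fast counterpart Tnnc2 had 227, 1970, 1784 and 2778 FPKM in siCtrl cells and 171, 2109, 2583 and 3041 FPKM in siKlf5 cells. Tnnc2 rose by 3.88 ± 0.19 (SE, limma, adjusted p = 9.52e-06). The Ube2c transcript of the expression table, whose own span shares 0 bases with that of Tnnc2, had 985 FPKM on day 0 and 305 FPKM on day 3 in siCtrl cells and 940 and 337 FPKM in siKlf5 cells, and its part in the Tnnc2 values was not tested.

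Tnni1 encodes the slow form of the inhibitory subunit. It had 156, 1344, 1756 and 2412 FPKM in siCtrl cells and 169, 1350, 2127 and 2470 FPKM in siKlf5 cells. Each day was above the day before it with either siRNA, and the rise from day 0 to day 3 was 3.91 ± 0.11 (SE, limma log2 difference, adjusted p = 7.4e-07). Tnni2, the fast form, started lowest of the 7 genes that rose, with 96.4, 1011, 1488 and 2058 FPKM in siCtrl cells and 33.1, 1132, 1752 and 1815 FPKM in siKlf5 cells. It rose by 5.09 ± 0.37 (SE, limma log2 difference, adjusted p = 6.78e-05), more than any other troponin gene in this comparison. Within siCtrl cells its increase was 21.3-fold and within siKlf5 cells 54.7-fold, and the gap between these ratios came from the day 0 libraries.

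Tnni3, the heart form, was close to absent. It was covered by 6, 0, 3 and 25 reads in siCtrl cells (3.75, 0, 1.1 and 15.0 FPKM) and by 1, 2, 5 and 4 reads in siKlf5 cells (0.69, 1.84, 3.16 and 2.74 FPKM). The siCtrl day 3 library was thus the highest. The counting intervals of all 8 levels overlapped, but the log2 ratio of day 3 over day 2 in siCtrl cells, 3.66, had an interval whose lower bound was 0.11, with no upper bound. The limma log2 difference between day 3 and day 0 was 1.91 ± 1.76 (SE, adjusted p = 0.45). Its neighbour Tnnt1, which lies 2333 bases away on the same strand, had 143 or more reads in every library.

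Tnnt1, the slow form of the tropomyosin-binding subunit, had 108, 821, 1260 and 1673 FPKM in siCtrl cells and 78.9, 1020, 1541 and 1722 FPKM in siKlf5 cells. It increased with each day in both series and rose by 4.20 ± 0.18 from day 0 to day 3 (SE, limma log2 difference, adjusted p = 4.86e-06). Tnnt2, the heart form that immature skeletal muscle also makes, was already the most abundant troponin transcript on day 0, with 506 FPKM in siCtrl and 408 FPKM in siKlf5 cells. Later siCtrl libraries had 2648, 2321 and 3635 FPKM, and later siKlf5 libraries 2360, 2509 and 2993 FPKM. Tnnt2 therefore had the smallest rise of the 7 genes, 2.86 ± 0.13 (SE, limma log2 difference, adjusted p = 7.07e-06). Tnnt3, the fast form, had 190, 2028, 2208 and 3300 FPKM in siCtrl cells and 114, 2107, 2922 and 3287 FPKM in siKlf5 cells. It rose by 4.48 ± 0.23 (SE, limma log2 difference, adjusted p = 1.12e-05).

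**Figure D1:**
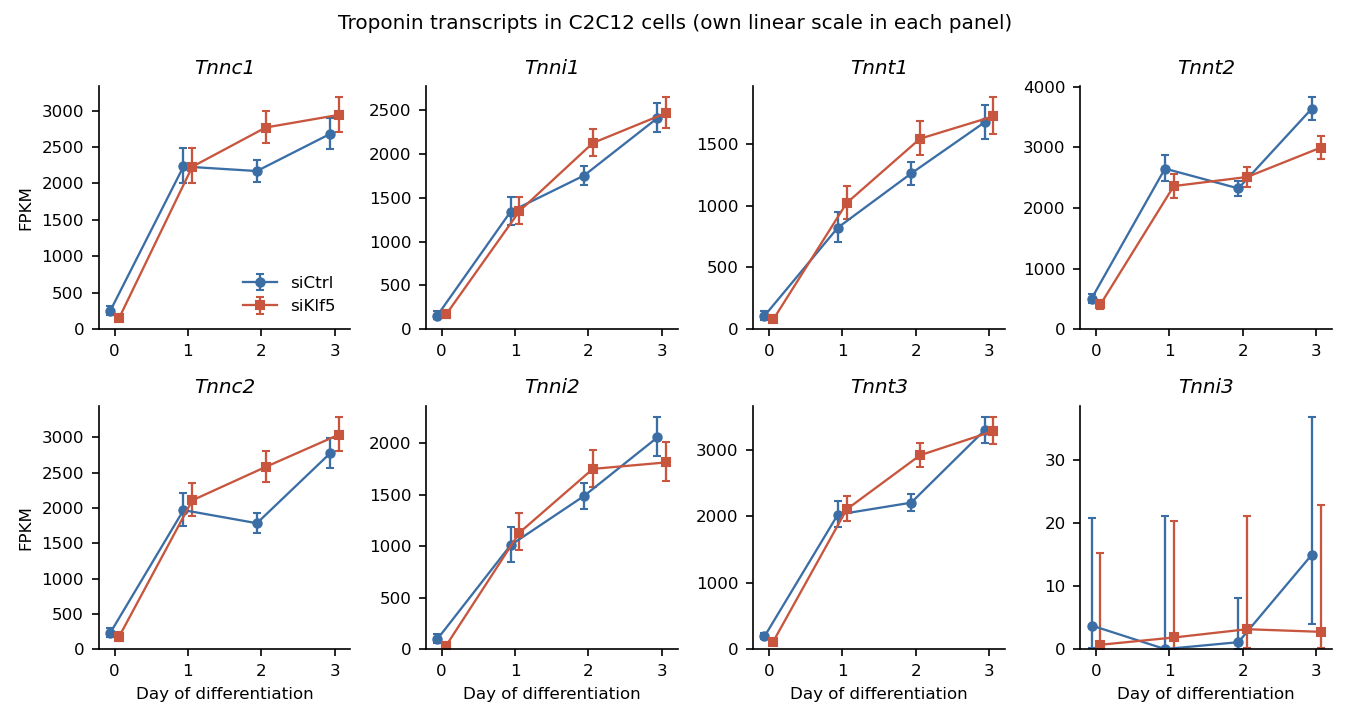
FPKM of the 8 troponin genes (linear scale from 0, set for each panel) on days 0 to 3 in siCtrl (circles) and siKlf5 (squares) libraries, 1 library a point, with bars for the 95% counting interval in units of 6 reads. All genes but Tnni3 were lowest on day 0 and had between 49.1% and 83.3% of their day 3 level on day 1, while Tnni3 stayed at or below 15.0 FPKM.

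By rank among all 24016 transcripts, Tnnt2 went from place 1044 on day 0 to place 8 on day 3 in siCtrl cells, and Tnni2 from place 6206 to place 67. In siKlf5 cells Tnni2 went from place 9403 to place 97. Neighbours in the order of levels within a library are called apart here where the 95% counting interval of their ratio excludes 1. Only neighbours were compared. In siCtrl cells on day 0, Tnnt2 was apart from Tnnc1, the next gene. From Tnnc1 through Tnnc2, Tnnt3, Tnni1 and Tnnt1 to Tnni2, no gene was apart from its next neighbour. The ends of that run did differ, as the level intervals of Tnnc1 (189 to 324 FPKM) and Tnni2 (60.2 to 149 FPKM) did not overlap. On day 3 the siCtrl order was Tnnt2, Tnnt3, Tnnc2, Tnnc1, Tnni1, Tnni2, Tnnt1 and Tnni3, and of these neighbours Tnnc2 and Tnnc1 were the 1 pair not apart. On day 3 in siKlf5 cells the neighbours from Tnnt3 through Tnnc2 and Tnnt2 to Tnnc1 were not apart, and Tnni1 was apart from both Tnnc1 and Tnni2.

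On the deposited scale the rise was early. Between day 0 and day 1, limma called the same 7 genes higher, with log2 differences from 2.46 ± 0.13 (SE, Tnnt2) to 4.24 ± 0.37 (SE, Tnni2), beside 6.82% of all transcripts tested. Between day 1 and day 2, limma called 0 of 8 higher (1.01% of all transcripts tested). At an unadjusted p under 0.05, 2 of 8 differed there, namely Tnni1 (0.52 ± 0.11, SE, limma adjusted p = 0.069) and Tnnt1 (0.61 ± 0.18, SE, limma adjusted p = 0.13). Between day 2 and day 3, limma called 0 of 8 (0.0279% of all transcripts tested), and 2 of 8, Tnni1 and Tnnt2, had an unadjusted p under 0.05. From day 1 to day 2 the median over all transcripts tested was 0.11. Among abundant transcripts Actb stood at -0.74 ± 0.17, Gapdh at -0.65 ± 0.17 and Acta1 at 0.02 ± 0.14 (SE, limma log2 difference). The siCtrl libraries held 7850497 exon reads on day 1 and 20301447 on day 2. The part of depth and scaling in the steps after day 1 was not tested, so these calls do not show that the rise stopped. On day 1 the 7 genes had between 49.1% (Tnnt1) and 83.3% (Tnnc1) of their day 3 level in siCtrl cells and between 54.6% (Tnni1) and 78.9% (Tnnt2) in siKlf5 cells. On day 2 the siCtrl library was at 63.8% (Tnnt2) to 81.0% (Tnnc1) of day 3, and the siKlf5 library at 83.9% (Tnnt2) to 96.5% (Tnni2). With a plain cutoff of 2-fold, all 8 troponin genes were higher on day 3 than on day 0 in siCtrl cells (15.5% of all transcripts tested) and all 8 in siKlf5 cells (14.9%), although for Tnni3 this rests on 6 against 25 reads and 1 against 4 reads.

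The makeup of each subunit differed between days for troponin T more than for troponin C. Because FPKM is per length, the share of each gene in the summed level of its subunit can be given. Tnnt2 had 0.996 reads per exon base on day 0 and 7.45 on day 3 in siCtrl cells. The part of the read limit in these shares was not tested. Slow Tnnc1 made up 52.3% of troponin C transcripts on day 0 and 49.1% on day 3 in siCtrl cells, and 46.4% and 49.2% in siKlf5 cells, the remainder being fast Tnnc2. Over the 8 libraries the share of Tnnc1 lay between 46.4% and 54.9%. Heart Tnnt2 made up 62.9% of troponin T transcripts on day 0 in siCtrl cells and 42.2% on day 3, while fast Tnnt3 went from 23.6% to 38.3% and slow Tnnt1 from 13.5% to 19.4%. The siKlf5 libraries ran the same way, with Tnnt2 at 67.9% and then 37.4%, Tnnt3 at 19.0% and then 41.1%, and Tnnt1 at 13.1% and then 21.5%. Tnnt2 had a larger share in both day 0 libraries than in any later library. Within troponin I, Tnni1 made up 61.0% on day 0 and 53.8% on day 3 in siCtrl cells, and 83.3% and 57.6% in siKlf5 cells. The siKlf5 day 0 library thus stood above the other 7, which lay between 53.8% and 61.0%. The share of Tnni3 was at most 1.46% of troponin I transcripts in any library.

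**Figure D2:**
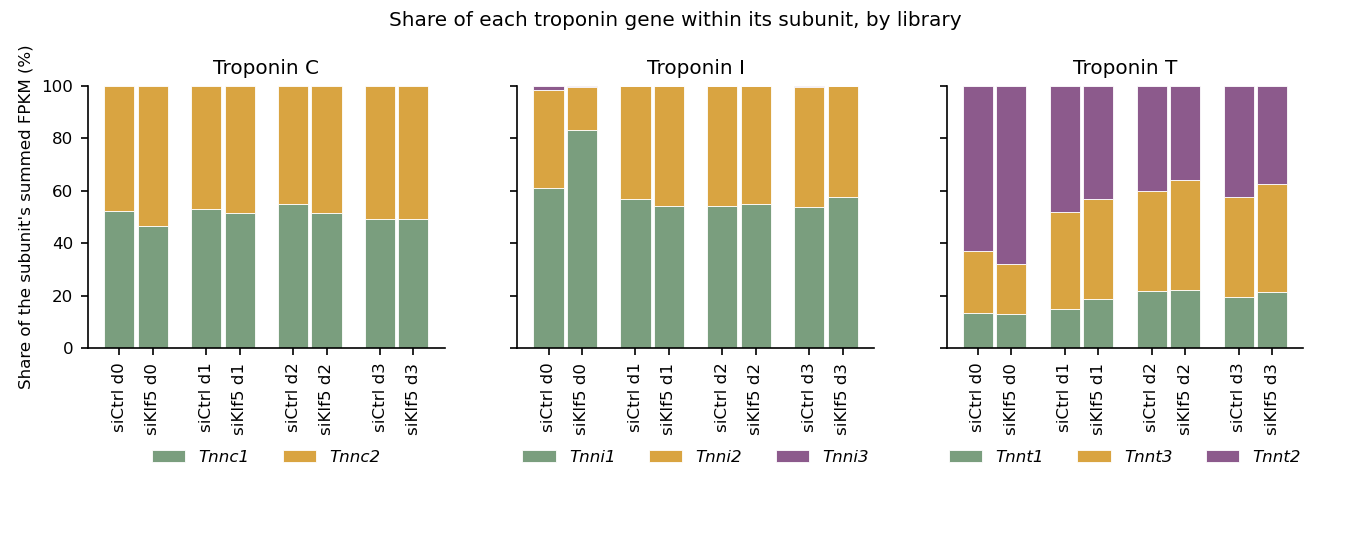
Share of each gene (%) in the summed FPKM of troponin C, troponin I and troponin T in each of the 8 libraries (d0 to d3 are days 0 to 3), with slow forms in green, fast forms in yellow and heart forms in purple. The share of Tnnt2 in troponin T was 62.9% (siCtrl) and 67.9% (siKlf5) on day 0 and 42.2% and 37.4% on day 3, whereas the troponin C shares stayed between 45.1% and 54.9%.

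For sums over the complex, Tnnc1 was counted as slow although heart muscle also uses it, so the slow share is an upper and the heart share a lower value. With that assignment slow, fast and heart forms made up 33.4%, 33.4% and 33.2% of 1537 FPKM on day 0 in siCtrl cells. By day 3 they were at 36.5%, 43.9% and 19.7% of 18552 FPKM. In siKlf5 cells the day 0 shares were 35.2%, 28.3% and 36.4% of 1123 FPKM, and the day 3 shares 39.0%, 44.6% and 16.4% of 18272 FPKM. With Tnnc1 counted as slow, the fast forms were the largest of the 3 groups on day 3 with either siRNA, and their share does not depend on where Tnnc1 is counted.

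Over the 4 days together, no troponin gene passed the paired test of siKlf5 against siCtrl cells. The limma comparison, in which each siKlf5 library is set against the siCtrl library of its day, called 0 of 8 troponin genes, beside 0.0629% of all transcripts tested (9 of 14312), and 0 of 8 had an unadjusted p under 0.05. The log2 differences lay between -0.33 ± 0.26 (SE, Tnni2, limma adjusted p = 0.72) and 0.26 ± 1.24 (SE, Tnni3, limma adjusted p = 0.97). The 9 called transcripts included Klf5 itself (-1.94 ± 0.20, SE, limma adjusted p = 0.024), the atrial and embryonic myosin light chain Myl4 (-1.03 ± 0.08, SE, limma adjusted p = 0.0066), and the fast myosin heavy chain Myh4 (1.5 ± 0.14, SE, limma adjusted p = 0.019). The error in this test is how far the difference varies from day to day, so a difference on 1 day adds to the error.

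On single days, where 1 library stands against 1 and no test is possible, the widest ratios of the 7 abundant troponin genes were on day 0. On day 0, 4 of 8 troponin genes were lower in siKlf5 by over 1.5-fold, Tnnc1, Tnni2, Tnni3 and Tnnt3 (11.1% of all transcripts tested), and 0 of 8 were higher by as much (9.22%). Fast troponin I showed the widest gap of the 7 abundant genes, with 33.1 FPKM (39 reads) in siKlf5 and 96.4 FPKM (125 reads) in siCtrl cells, a log2 ratio of -1.54 (95% counting interval -3.27 to -0.31). Tnnc1 had a log2 ratio of -0.75 (-1.42 to -0.09) and Tnnt3 one of -0.74 (-1.37 to -0.12). The intervals of these 3 genes excluded 0. Tnnt1 at -0.46, Tnnc2 at -0.41 and Tnnt2 at -0.31 had intervals that included 0, as did Tnni1 at 0.11 (-0.47 to 0.69), which was the 1 abundant troponin gene that was not lower. Tnni3 had 1 read against 6.

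The median log2 ratio on day 0 was -0.46 over the 7 abundant troponin genes, 0.001 over all transcripts tested and 0.05 over the 200 most abundant other transcripts. It lay between -0.50 and -0.45 under 3 other scalings. Among 5156 other transcripts whose siCtrl level on day 0 lay in the range of the 7 genes (96.4 to 506 FPKM), 2.64% were lower by over 1.5-fold and 0.33% were higher, and 7 had a ratio below that of Tnni2. Tnni2 sets the lower bound of that range, so these transcripts were at least as abundant in siCtrl cells. The count of 7 therefore does not say how common such a ratio is at the level of Tnni2. Myog, the muscle factor whose level marks entry into differentiation, had 328 FPKM in siKlf5 and 479 FPKM in siCtrl cells on day 0. It was also lower in siKlf5 on days 1, 2 and 3, with 1386 against 2293 FPKM on day 3. The median log2 ratio of the 7 troponin genes on day 3 was 0.03. The part of Myog in the troponin ratios was not tested.

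On day 1 the siRNAs were close. Of the 8 genes, 0 were lower by over 1.5-fold (11.0% of all transcripts tested) and 1 was higher (16.4%), namely Tnni3 with 2 reads against 0, where the 95% counting interval of the 0 reaches up to 21.2 FPKM and no fold is given. The 7 abundant genes had log2 ratios between -0.17 (Tnnt2, -0.33 to 0.001) and 0.31 (Tnnt1, 0.02 to 0.60), and Tnnt1 was the 1 gene whose interval excluded 0. Fast troponin I, the gene with the widest gap on day 0, had 1132 FPKM in siKlf5 and 1011 FPKM in siCtrl cells, a ratio of 0.16 (-0.16 to 0.50). The median of the 7 genes was 0.06, and it was -0.01 after median-ratio scaling.

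On day 2, on the deposited scale, all 7 abundant genes had a higher level in siKlf5 cells, by log2 ratios of 0.11 (Tnnt2) to 0.53 (Tnnc2), and the intervals of 6 of them were above 0. None of the 7 passed 1.5-fold. Counting Tnni3 (5 reads against 3), 1 of 8 was higher by over 1.5-fold (7.69% of all transcripts tested) and 0 of 8 lower (13.0%). The median ratio of the 7 genes was 0.29, and the 200 most abundant other transcripts had a median of 0.37, with 196 of the 200 above 0, whereas all transcripts tested had a median of -0.03. The siCtrl day 2 library was the deepest, at 20301447 exon reads against 11808653 for siKlf5. The 7 genes had 4.23 to 7.80 reads per exon base in that library and 3.0 to 5.68 in its siKlf5 counterpart, and the part of depth in these ratios was not tested. With both libraries centred on the 200 abundant transcripts, the median of the 7 genes on day 2 was -0.09 in place of 0.29. After median-ratio scaling and after upper-quartile scaling it was 0.34. The direction on this day thus depends on the scaling. The centring moved the day 2 median of all transcripts to -0.41. The troponin genes lay 0.32 above the median of all transcripts on the deposited and on the centred scale.

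On day 3 the levels were again close. The 7 abundant genes had log2 ratios between -0.28 (Tnnt2) and 0.13 (Tnnc1), with a median of 0.03 (-0.05 when centred on the abundant transcripts) beside 0.06 over the 200 most abundant other transcripts. Tnnt2, at 2993 FPKM in siKlf5 and 3635 FPKM in siCtrl cells, was the 1 gene whose interval excluded 0 (-0.40 to -0.16). Tnni3 was the 1 of 8 troponin genes lower by over 1.5-fold (12.5% of all transcripts tested), with 4 reads against 25 and an interval that included 0 (-7.43 to 1.53), and 0 of 8 were higher (10.7%).

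**Figure D3:**
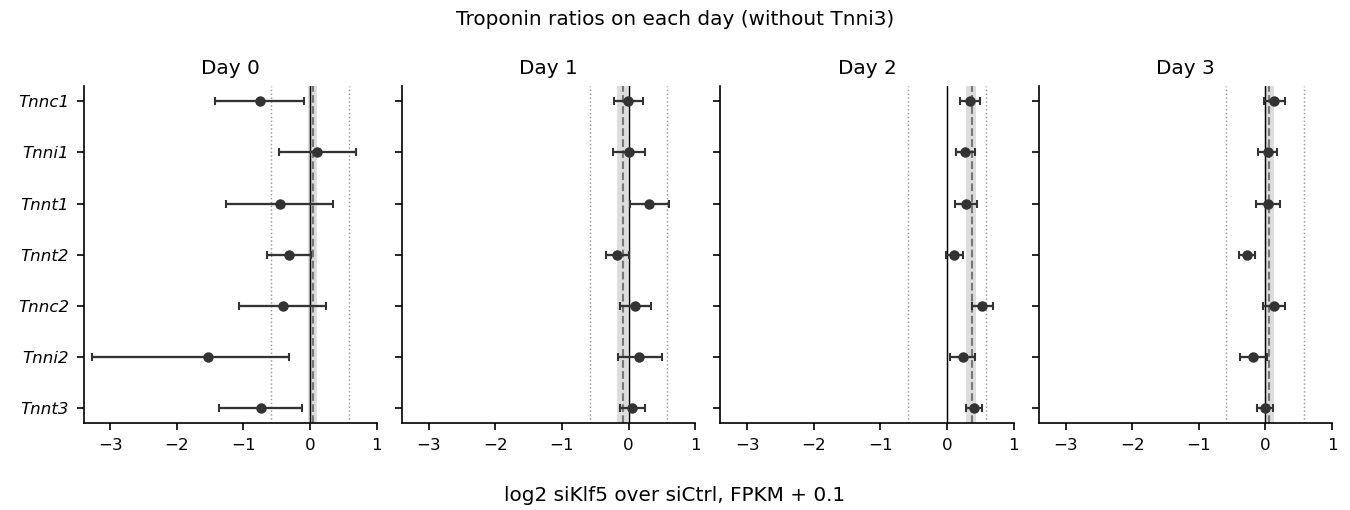
Log2 ratio of siKlf5 over siCtrl (FPKM + 0.1) for the 7 abundant troponin genes on days 0 to 3, with 95% counting intervals in units of 6 reads. Dotted lines mark 1.5-fold, the dashed line and grey band the median and middle range of the 200 most abundant other transcripts. On day 0 6 of 7 genes lie below 0, and on day 2 all 7 lie above 0 on the deposited scale, although their median is -0.09 when centred on the abundant transcripts.

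Set among all expressed transcripts, the 7 abundant troponin genes lay at places 1044 to 6206 by siCtrl level on day 0 and at places 8 to 109 on day 3. Their ratios on days 1 to 3 lay between -0.28 and 0.53, within the 1.5-fold lines.

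**Figure D4:**
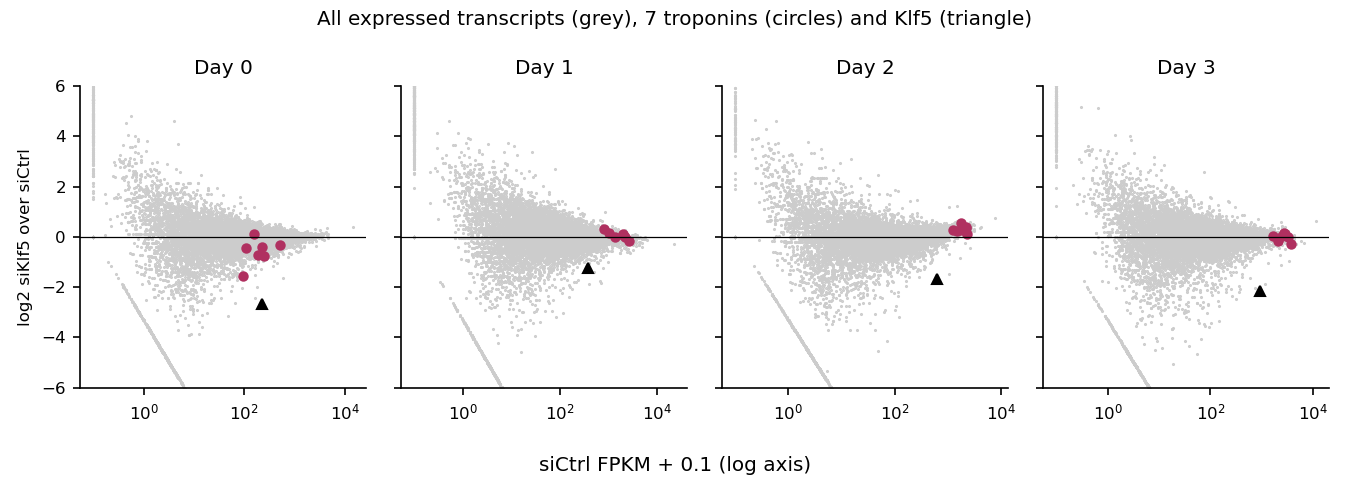
Log2 ratio of siKlf5 over siCtrl (FPKM + 0.1, drawn from -6 to 6) against the siCtrl level (FPKM + 0.1, log axis) for 14312 transcripts on each day, with 7 troponin genes as circles and Klf5 as a triangle. The circles lie between 96.4 and 506 FPKM on day 0 and above 821 FPKM from day 1 on, and Klf5 lies below 0 on every day. Between 162 and 318 transcripts a day lie outside the drawn range.

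The partners of troponin were measured with the same model. Of 16 other thin filament genes, 12 rose between day 0 and day 3 and 1 fell (12.8% of all transcripts rose). Skeletal actin Acta1 rose by a log2 difference of 3.57 ± 0.14 (SE, limma adjusted p = 3.8e-06) and cardiac actin Actc1 by 4.11 ± 0.20 (SE, limma adjusted p = 8.27e-06). The tropomyosins, to which troponin T binds, were split, with Tpm1 up by 0.92 ± 0.15 and Tpm2 by 1.78 ± 0.13 and Tpm3 down by 0.78 ± 0.10 (SE, limma). Tpm3 already had 1324 FPKM on day 0 in siCtrl cells, and its forms are not separated here. None of the 16 was called between the siRNAs. The median difference there was -0.01 for the troponin genes and -0.31 for the 16, which were not matched to them for level. Abundant partners stood on both sides of 0, with Acta1 at 0.17, Tpm1 at 0.15, Tpm2 at 0.17 and Actc1 at -0.39.

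Of the slow fibre list, 9 of 10 genes were tested and 8 rose while Tpm3 fell, and Myl3 had no read in any library. All 10 fast fibre genes rose, namely Myh1, Myh2, Myh4, Mylpf, Myl1, Atp2a1, Casq1, Pvalb, Mybpc2 and Actn3. The regulatory light chain Mylpf rose by 3.30 ± 0.18 and the calcium pump Atp2a1 by 4.24 ± 0.16 (SE, limma), within the range of 2.86 to 5.09 of the 7 troponin genes that rose. Myh4 was the 1 gene of these lists called between the siRNAs, and it was higher in siKlf5 on every day. Its levels were 25.6 against 7.97 FPKM on day 0 and 598 against 228 FPKM on day 3. Myh7, of the slow list, was lower in siKlf5 on every day but was not called (log2 difference -2.16, limma adjusted p = 0.073). It had 2.88 against 7.86 FPKM on day 0 and 55.5 against 311 FPKM on day 3. The median log2 difference between the siRNAs was -0.32 over the slow genes tested and -0.08 over the fast genes. Of the 3 heart muscle genes tested, Myh6 rose by 4.30 ± 0.73, Gata4 fell by 0.85 ± 0.19 and Nppb did not pass the test (SE, limma). Of 6 smooth muscle markers, 4 were tested and all 4 rose, with Acta2 up by 1.53 ± 0.15 (SE, limma), and Myh11 and Cnn1 were under a mean of 1 FPKM. The slow and fast lists held genes that rose with the troponins, and in the heart list Myh6 alone was called higher. The summed level of the heart list was 84.6 to 146 FPKM in any library.

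The transcripts most like each troponin gene were ranked by the correlation of log2 levels over the 8 libraries against 11591 transcripts that averaged 10 FPKM or more. Mylpf came first for Tnnc1 (r = 0.998), Tnnc2 (r = 0.998), Tnnt2 (r = 0.996) and Tnnt3 (r = 0.999). Tnni1 was most like Hrc (r = 0.999) and then Myh3, Tnni2 most like Ssc5d (r = 0.997) and then Casq2, and Tnnt1 most like Rbm24 (r = 0.998) and then Myh3. Other troponin genes were among the nearest 3 for Tnnc1, Tnnc2, Tnnt1 and Tnnt3. Among the 7 abundant troponin genes the correlations were between 0.978 and 0.998, and those of Tnni3 with them were between 0.10 and 0.19. These are descriptions over 8 libraries that share the same 4 days, so any pair of genes that rose from day 0 correlates.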

How the data were processed

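The authors aligned paired-end poly(A) reads to mm9 with STAR and used HOMER for exon counts of RefSeq transcripts on either strand, with 1 transcript per gene. The file header sets a limit of 3 reads per position, but 7 to 48 transcripts per library exceed 6 reads per base, so how the limit acted is unclear. The deposited FPKM values were scaled by the authors to a total of 10000000 per library. A further 8 deposited log2 columns of the same libraries were not used. FPKM times exon length gave whole reads in 100% of low values checked (within 0.1 read), which gave the depth. Reads often came in groups of 6, so counting intervals (95%, exact, counting error only) used units of 6 reads. The linear model was limma 3.58.1 (R 4.3.3) on log2(FPKM + 0.1) with day and siRNA as terms, a mean of at least 1 FPKM and Benjamini-Hochberg adjustment at 0.05. It has 3 residual degrees of freedom, and nothing says that libraries came from separate cultures, so p-values measure only the spread between these libraries, which may be technical. The procedure was tested on simulated data. Alternatives were other pseudocounts, filters, scalings, fold cutoffs, prior variances and leaving out days. All 8 troponin genes and all 10 fast fibre genes are named, and of the other partner lists mainly the genes called and those with the highest mean. The members and lists were chosen with earlier results of these data known. Promoters came from a RefSeq table on GRCm38.p6, and annotation from GENCODE M1 on mm9. No replicate exists for any siRNA and day.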

Additional observations from a re-analysis of the deposited data

Results flagged for a closer look

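For 3 troponin genes the siKlf5 over siCtrl ratio lay on opposite sides of 0 on 2 days, with counting intervals that excluded 0 both times. On the log2 scale Tnnc1 stood at -0.75 (day 0) and 0.35 (day 2). Tnni2 stood at -1.54 (day 0) and 0.23 (day 2), and Tnnt3 at -0.74 (day 0) and 0.40 (day 2). Each day has 1 library per siRNA, so the difference between the days was not tested. The 200 most abundant other transcripts had a median of 0.37 on day 2. Centred on these, the day 2 values were -0.026 (Tnnc1), -0.14 (Tnni2) and 0.028 (Tnnt3), so the opposite signs are lost for Tnnc1 and Tnni2. Tnnt3 kept its sign, but no interval was computed after centring. Exclusion of 0 on day 2 is therefore not shown for any of the 3 genes on that scale.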

How the results depend on the processing

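No result rests on replicates, so the values are those of single libraries. Every alternative left the number of troponin genes called over the 4 days at 0 and the number called between day 0 and day 3 at 7. With a cutoff of 2-fold, 2 of 8 troponin genes were lower in siKlf5 on day 0 in place of 4. With a mean of at least 5 FPKM, which leaves Tnni3 out, 0 were higher on day 1, 0 higher on day 2 and 0 lower on day 3, in place of 1 each.

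In the siRNA comparison over 4 days, no call was made, and 11 signs of single genes changed. With 1 day left out, the log2 difference ranged from -0.21 to 0.16 for Tnnc1, -0.059 to 0.25 for Tnnc2, -0.52 to 0.072 for Tnni2, -1.08 to 1.15 for Tnni3, -0.042 to 0.21 for Tnnt1 and -0.23 to 0.15 for Tnnt3. The upper values of Tnnc1, Tnni2 and Tnnt3 are those without day 0, where they were 0.16, 0.072 and 0.15. A pseudocount of 1 gave -0.27 for Tnni3. Centring on the 200 most abundant other transcripts, chosen after seeing the data, gave -0.013 for Tnnc2 and -0.055 for Tnnt1. The cause was not tested.

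A correction of FPKM for the limit of 3 reads per position was planned and was not run, because 7 to 48 transcripts per library exceed 6 reads per base, which that limit on 2 strands could not give. Tnni3, with at most 25 reads, is at the limit of the depth.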
